A study of Mus musculus with 9 samples.

Results

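Among the genes counted in E14 mouse embryonic stem cells, 8 were picked because their reads were high in 2i culture and lost in serum, in epiblast-like cells or in both. They are Ngfr, Trpm1, Calr4, Fabp7, Sash3, Pkd2l1, Tlx2 and Lrrc15, 8 of the 38293 genes in the table. Their read counts in all 9 libraries chose them, so their levels, folds and calls are given here as a description, with no test. The genes were thus chosen by the counts that are described. RNA-seq had been carried out on 3 groups of 3 libraries, labelled as biological replicates. E14 is a 129/Ola embryonic stem cell line, and all groups come from it. The mESC-2i group was kept in serum-free N2B27 medium with 10 ng/mL LIF, 1 uM of the MEK inhibitor PD0325901 and 3 uM of the GSK3 inhibitor CHIR99021. The mESC-ser group, which the labels call primed, was kept on gelatin in DMEM with 15% fetal bovine serum and 10 ng/mL LIF. The EpiLC group was made from naive mESC on fibronectin, in N2B27 with 20 ng/mL activin A, 12 ng/mL bFGF and 1% knockout serum replacement. The 3 groups are 1 line in different media, and medium, coating and the inhibitors change together between them, so the part of each cannot be told apart.

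In 2i medium, blocking MEK keeps the FGF and ERK pathway low, and blocking GSK3 stabilises beta-catenin, which holds the cells close to the naive epiblast of the preimplantation embryo. Serum supports a more mixed culture, and activin A with FGF moves naive cells towards the epiblast that follows implantation. None of the 8 genes is a classical pluripotency factor. They are known from differentiated tissues: a neurotrophin receptor, 2 cation channels, an endoplasmic reticulum chaperone, a lipid carrier of radial glia, a lymphocyte adaptor, a homeobox factor of enteric neurons and a membrane protein of activated fibroblasts.

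Libraries held between 7187576 and 16829549 counts. The labelled states were checked with 9 identity genes. Klf4, a naive pluripotency factor, was at 371 ± 18.1 CPM (counts scaled to library size with TMM factors; mean ± SD of 3 libraries, as for all levels here) in mESC-2i, 150 ± 19.6 in serum and 1.26 ± 0.605 in EpiLC. Fgf5, a marker of the epiblast after implantation, held between 0 and 2 counts per library in mESC-2i and was at 122 ± 5.32 CPM in EpiLC. Replicate 3 of mESC-2i stood apart from the other mESC-2i libraries. The chi-square of its counts per degree of freedom was 12.6 against replicate 1 and 28.3 against replicate 2, while replicates 1 and 2 gave 3.85 between them. In mESC-ser replicate 3 also stood apart, at 10.9 and 11 against 1.61 between the others.

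All 8 genes were called lower in mESC-ser than in mESC-2i, where 30.3% of the 15728 tested genes were called lower. A call needed an adjusted p under 0.05 in edgeR's quasi-likelihood test and an absolute log2 fold change over 0.5. All 8 were also called lower in EpiLC than in mESC-2i, where 37.8% of 15378 genes were. In neither comparison did the 3 libraries of the low group overlap those of mESC-2i in CPM for any of the 8, and the same held, in the lower direction, for 35.6% of all tested genes in mESC-ser and 43.6% in EpiLC. Since the same libraries chose the genes, nothing is read from these counts. Both comparisons share the mESC-2i libraries. In bulk RNA, fewer cells that express a gene and less RNA per cell cannot be told apart. What the 8 genes did not share was the place of their remaining reads. In Trpm1 and Sash3 almost no reads were left in either other state. In Calr4 and Pkd2l1 the remaining reads were mostly in EpiLC, and in Ngfr, Lrrc15 and Tlx2 they were mostly in serum. Fabp7 kept only 5 reads, all in EpiLC, too few to order the low groups.

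**Figure D1:**
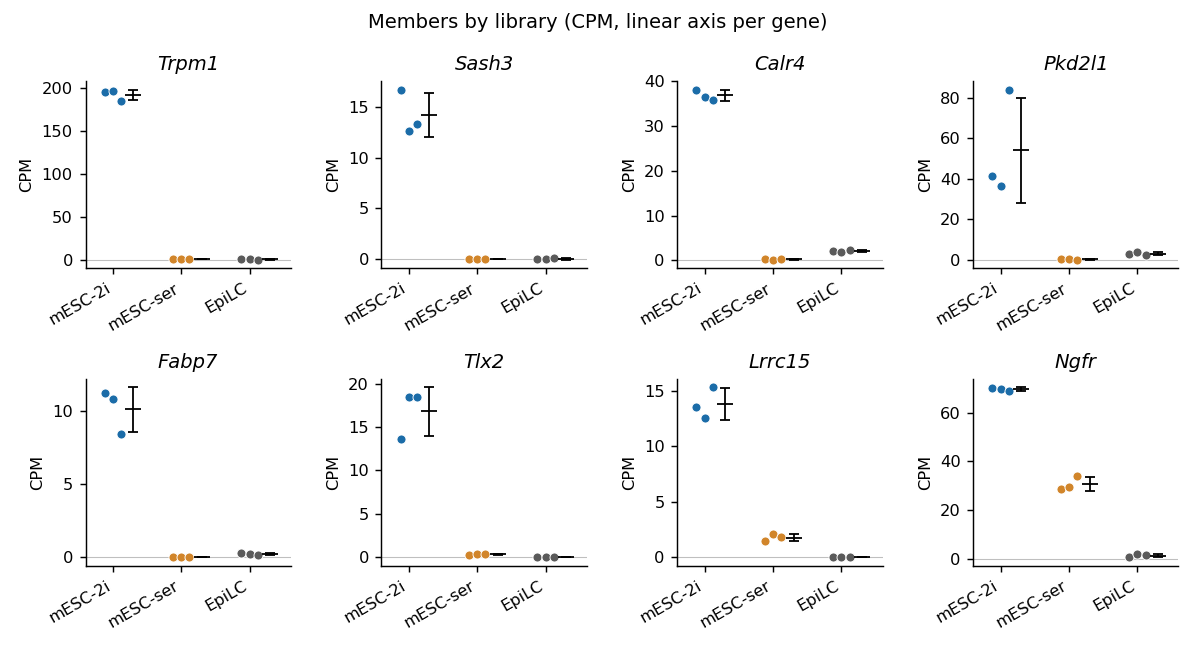
CPM of the 8 genes in each library, with a linear axis per gene. Dots are libraries, in the order of replicates 1 to 3, and the bar beside them is the mean ± SD of 3 libraries. Every mESC-2i dot lies above all dots of the other groups, Ngfr in mESC-ser stays between 28.8 and 34.1 CPM, and replicate 3 of mESC-2i is far above the others for Pkd2l1.

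Trpm1 encodes melastatin, a TRP cation channel of melanocytes and of the retinal bipolar cells that respond to light onset. It lies on the plus strand of chromosome 7 (GRCm38, 7:64153835-64269775), and its exons cover 14746 bases. The mESC-2i libraries held 1548, 2348 and 2356 counts, or 195, 196 and 185 CPM. The mESC-ser libraries held 11, 4 and 8 counts and the EpiLC libraries 1, 4 and 0. Both low groups overlapped each other, at 0.333 to 0.757 CPM in mESC-ser and 0 to 0.437 CPM in EpiLC, so no order between them can be read. Pooled over libraries, mESC-2i stood 366-fold above mESC-ser (95% exact counting interval 243 to 577) and 943-fold above EpiLC (404 to 2910). These intervals, here and below, cover counting error only. The fitted log2 fold change was -8.52 ± 0.19 (SE) in serum and -9.80 ± 0.26 in EpiLC. The 3 mESC-2i libraries varied by 3.20% (SD over mean), so the level in 2i was nearly the same in each. Trpm1 was the only one of the 8 with exons under another annotated gene, 12 bases shared with an opposite-strand model, which is 0.0814% of its exonic bases. The microRNA gene Mir211 in one of its introns held 1 count in mESC-2i and none elsewhere, in a poly-A library that does not capture mature microRNAs.

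RefSeq gave promoter windows, 250 bases before and 50 after a transcription start, for 6 of the 8 genes with 10 starts in all. Each window was searched on both strands for 6 motifs: E-box (CACGTG), M-box (TCATGTG), TCF/LEF (CTTTGAT), STAT (TTCNNNGAA), octamer (ATGCAAAT) and ESRRB (TCAAGGTCA). The M-box is known from promoters of melanocyte genes, where MITF binds it. Among 32851 windows of the same length, 7.15% held the E-box, 3.77% the M-box, 3.73% the TCF/LEF, 8.30% the STAT, 1.74% the octamer and 0.423% the ESRRB letters. Matches were found in windows of Trpm1 and Sash3 and in none of those of Ngfr, Calr4, Fabp7 and Lrrc15. The windows of Trpm1 are shown because its 2 starts hold different motifs, in capitals, with the M-box 142 bases before the first start (7:64153693-64153699) and the E-box 229 bases before the second (7:64185230-64185235). The stretches are 7:64153585-64153834 and 7:64185209-64185380, both on the plus strand of GRCm38.p6, and the second ends where an annotated exon of Trpm1 begins:
Trpm1 first start: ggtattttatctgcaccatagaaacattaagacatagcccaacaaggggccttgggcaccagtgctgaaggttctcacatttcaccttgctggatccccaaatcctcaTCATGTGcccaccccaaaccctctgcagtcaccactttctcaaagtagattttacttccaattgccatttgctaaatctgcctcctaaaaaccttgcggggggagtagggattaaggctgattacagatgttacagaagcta
Trpm1 second start: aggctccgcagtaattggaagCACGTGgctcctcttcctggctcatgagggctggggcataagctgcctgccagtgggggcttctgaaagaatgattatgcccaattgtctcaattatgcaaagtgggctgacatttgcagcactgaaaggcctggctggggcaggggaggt
A match is a run of letters and not a measured binding site.

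Sash3 encodes an SH3-domain adaptor known from T and B lymphocytes. It lies on the plus strand of the X chromosome (X:48146436-48161565). Its mESC-2i libraries held 132, 151 and 169 counts (16.7, 12.6 and 13.3 CPM), while 1 count remained in mESC-ser and 1 in EpiLC, each in replicate 3. With a single count left in each group, mESC-ser and EpiLC cannot be ordered. The pooled ratio of mESC-2i was 608 over mESC-ser (109 to 24100) and 341 over EpiLC (60.9 to 13500). The width of these intervals comes from the 1 count in each low group. The Sash3 window is shown because it holds 2 of the 6 motifs. The octamer, the motif of POU factors such as OCT4, starts 240 bases before the transcription start (X:48146196-48146203), and the stretch printed is X:48146186-48146435 on the plus strand:
Sash3: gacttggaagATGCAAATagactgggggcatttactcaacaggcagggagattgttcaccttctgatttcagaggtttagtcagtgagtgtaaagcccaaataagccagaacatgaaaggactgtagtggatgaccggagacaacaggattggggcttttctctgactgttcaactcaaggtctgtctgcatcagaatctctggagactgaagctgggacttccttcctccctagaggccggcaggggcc
The E-box lies 21 bases after the start (X:48146457-48146462), within X:48146447-48146472 on the plus strand:
Sash3 past the start: aagagcaggtCACGTGgcaaggtttc

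Calr4, a relative of the endoplasmic reticulum chaperone calreticulin, kept few reads in serum and more in EpiLC. It lies on the plus strand of chromosome 4 (4:109234485-109254571). Counts were 303, 439 and 456 in mESC-2i, 3, 2 and 5 in serum and 16, 17 and 18 in EpiLC. The 3 groups did not overlap, and EpiLC (2.08 ± 0.206 CPM) stood above mESC-ser (0.220 ± 0.0618 CPM). The mESC-2i level of 36.9 ± 1.24 CPM was 161-fold that of mESC-ser (87.3 to 337) and 17.7-fold that of EpiLC (13.4 to 23.9). Fitted log2 fold changes were -7.31 ± 0.20 in serum and -4.14 ± 0.15 in EpiLC.

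Pkd2l1, a polycystin cation channel known from neurons that touch the cerebrospinal fluid and from sour taste cells, had the same order of groups. It lies on the minus strand of chromosome 19 (19:44147637-44192442). Counts were 329, 440 and 1072 in mESC-2i, 3, 4 and 2 in serum and 23, 34 and 17 in EpiLC. Its mESC-2i levels were 41.5, 36.7 and 84.2 CPM, so replicate 3 stood at 2.15 times the mean of the other libraries. The other 7 genes had ratios between 0.764 and 1.18 in that library, and 1.34% of the 10224 genes with a mean of at least 100 counts in mESC-2i reached 2. With all libraries the pooled ratio was 275 over mESC-ser (145 to 603) and 18.8 over EpiLC (14.9 to 24.0). The fitted log2 fold changes were -8.01 ± 0.49 in serum and -4.18 ± 0.37 in EpiLC, and -7.52 and -3.69 without replicate 3 of mESC-2i. The direction of both was the same without that library. The polycystins Pkd1 and Pkd2 were also higher in it, at 2.03 and 1.73 times the mean of the other mESC-2i libraries. The ratio of Pkd2 lay within the range that held the central 95% of those 10224 genes. Genes outside this family differed in it too, with Trpm4 at 1.44, Trpm7 at 1.41 and Bloc1s2 at 0.666. Nothing is therefore read about polycystins as a family from that library.

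Fabp7, the fatty acid binding protein of radial glia, had no read in serum. It lies on the plus strand of chromosome 10 (10:57784881-57788450), and its libraries held 89, 129 and 107 counts in mESC-2i, 0, 0 and 0 in serum and 2, 2 and 1 in EpiLC. At 10.1 ± 1.52 CPM, mESC-2i was at least 146-fold higher than mESC-ser, with 3 counts over the 3 empty libraries as the floor. The ratio over EpiLC was 49.0 (20.8 to 152). The EpiLC reads add up to 5, which lies close to that floor.

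Among Calr4, Pkd2l1 and Fabp7, only the former 2 had enough reads for a fit of EpiLC against mESC-ser. Calr4 was higher in EpiLC by a log2 fold change of 3.20 ± 0.37 and Pkd2l1 by 3.87 ± 0.40. In that comparison 35.5% of the 15345 tested genes were called higher and 37.8% lower. Ngfr and Lrrc15 were the other members tested there and both were called lower. Trpm1, Sash3, Fabp7 and Tlx2 did not pass the filter on low counts. Calr4 and Pkd2l1 passed it through their EpiLC reads, and Ngfr and Lrrc15 through their serum reads. The filter and the choice of the genes both used these reads, so the calls are a description and nothing is read from their direction.

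Ngfr, the low-affinity neurotrophin receptor of neural crest cells, Schwann cells and sensory neurons, was not restricted to 2i. It lies on the minus strand of chromosome 11 (11:95568818-95587735). Counts were 558, 839 and 877 in mESC-2i, 419, 352 and 593 in serum and 4, 17 and 11 in EpiLC. In CPM the mESC-2i libraries were at 70.4, 70.0 and 68.9 and the mESC-ser libraries at 28.8, 29.3 and 34.1. The groups did not overlap, but serum kept 30.2% of the summed level of the 3 groups. The mESC-2i level was 2.24-fold that of mESC-ser (2.10 to 2.40) and 53.6-fold that of EpiLC (37.9 to 78.6). The fitted log2 fold change was -1.21 ± 0.10 in mESC-ser, -5.74 ± 0.22 in EpiLC, and -4.49 ± 0.21 in EpiLC against mESC-ser. Ngfr is therefore described here as a gene lost in EpiLC and lowered in serum.

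Lrrc15 encodes a leucine-rich repeat membrane protein of activated fibroblasts and lies on the minus strand of chromosome 16 (16:30269302-30283256). It held 107, 150 and 195 counts in mESC-2i, 21, 25 and 31 in serum and 0 in each EpiLC library. Serum kept reads in every library, and EpiLC in none. The mESC-2i level of 13.8 ± 1.42 CPM was 7.90-fold that of mESC-ser (6.19 to 10.2) and at least 114-fold that of EpiLC. The fitted log2 fold change in mESC-ser was -2.99 ± 0.19.

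Tlx2, a homeobox factor of the enteric nervous system, lies on the minus strand of chromosome 6 (6:83068324-83070293). Counts were 108, 220 and 236 in mESC-2i, 4, 4 and 7 in serum and 0 in each EpiLC library. The serum reads were few but present in all 3 libraries. The mESC-2i level of 16.8 ± 2.78 CPM was 50.6-fold that of mESC-ser (30.4 to 91.0) and at least 142-fold that of EpiLC, and the fitted log2 fold change in mESC-ser was -5.62 ± 0.25. Replicate 1 of mESC-2i was the lowest of its group at 13.6 CPM, against 18.4 and 18.5.

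The windows of Ngfr and Lrrc15 are shown because they had more CpG dinucleotides, which are in capitals, than those of the other members with windows. In the 250 bases before the start, Ngfr had 16 CpG with 70.4% GC, and Lrrc15 had 11 with 56.4% GC. The 8 starts of Trpm1, Calr4, Fabp7 and Sash3 had between 1 and 6. Over all 32851 windows the quartiles were 2, 6 and 16 and the median GC was 52.4%. Ngfr and Lrrc15 were also the members with the most of their level in serum, 30.2% and 11.4%. This is a description over 6 genes, with no test, as Tlx2 and Pkd2l1 had no window. The serum levels are among the values that chose the genes, so no link between CpG number and serum level is read. The stretches are 11:95587736-95587948 and 16:30283257-30283504, both on the minus strand of GRCm38.p6, and they end where an annotated exon begins, with 14 CpG left for Ngfr and 11 for Lrrc15:
Ngfr: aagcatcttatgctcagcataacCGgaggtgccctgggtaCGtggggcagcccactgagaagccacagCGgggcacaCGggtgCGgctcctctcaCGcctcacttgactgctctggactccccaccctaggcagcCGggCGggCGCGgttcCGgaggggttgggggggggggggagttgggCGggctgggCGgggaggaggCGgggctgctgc
Lrrc15: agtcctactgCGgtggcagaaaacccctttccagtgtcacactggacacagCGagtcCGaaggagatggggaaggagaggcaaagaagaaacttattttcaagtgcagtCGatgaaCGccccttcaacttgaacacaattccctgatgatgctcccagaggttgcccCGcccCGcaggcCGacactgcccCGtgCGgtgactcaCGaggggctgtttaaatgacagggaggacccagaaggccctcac

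On a scale per exonic length, the 8 genes spanned 2.59 to 20.2 RPKM in 2i. The order in mESC-2i was Ngfr at 20.2 ± 0.233 RPKM (CPM per kilobase of exon), Pkd2l1 at 15.3 ± 7.40, Calr4 at 14.6 ± 0.491, Trpm1 at 13.0 ± 0.416, Tlx2 at 10.6 ± 1.76, Fabp7 at 8.11 ± 1.21, Sash3 at 5.30 ± 0.813 and Lrrc15 at 2.59 ± 0.267. Trpm1, which led by CPM, came after Ngfr, Pkd2l1 and Calr4 by RPKM because its exons, joined over all annotated transcripts, are long. The length of the transcripts present in these cells was not measured, so this order depends on the annotation. Pkd2l1 and its neighbours in that order, Ngfr and Calr4, differed by less than the spread of Pkd2l1. In serum only Ngfr stayed above 1 RPKM, at 8.93 ± 0.849, and in EpiLC none of the 8 did.

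The share of the 3 summed group means that fell to mESC-2i set the 8 genes beside all others. It was 99.63% for Trpm1, 99.57% for Sash3, 98.04% for Tlx2, 98.03% for Fabp7, 94.4% for Pkd2l1, 94.1% for Calr4, 88.6% for Lrrc15 and 68.5% for Ngfr. Among the 10224 genes with a mean of at least 100 counts in mESC-2i, the median share was 31.9%, and 68 genes (0.665%) reached 90%. Trpm1 and Sash3 held ranks 1 and 2, Tlx2 8, Fabp7 9, Pkd2l1 32, Calr4 38, Lrrc15 83 and Ngfr 387. Shares of 98% or more were found in 9 genes and of 99% or more in 3. Without replicate 3 of mESC-2i the share of Pkd2l1 was 92.46%.

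**Figure D2:**
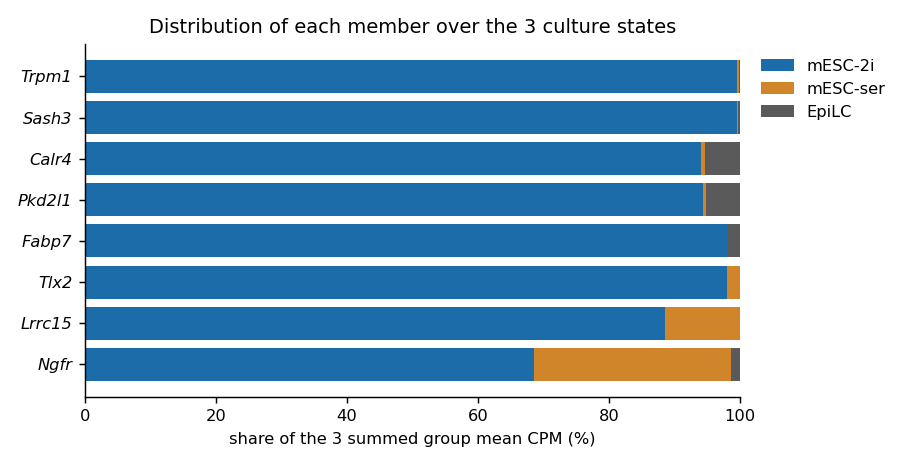
Share of the 3 summed group mean CPM that fell to each culture state, per gene, in percent. Bars add to 100%. The parts outside mESC-2i lie mainly in EpiLC for Calr4, Pkd2l1 and Fabp7 (only 5 counts for Fabp7). They lie mainly in mESC-ser for Tlx2, Lrrc15 and Ngfr (30.2% in mESC-ser).

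By the same measure, the 10 other named genes with the highest share over the 3 groups were Tfap2b, Msx3, Osm, Bhmt, Bhmt-ps1, Adh1, Mal, Pglyrp1, Car8 and Dmgdh, with shares from 97.2% to 98.9%. Tfap2b, a transcription factor of neural crest, was at 10.5 ± 1.58 CPM in mESC-2i and 0.112 ± 0.0274 in mESC-ser, with no read in EpiLC. Msx3, a homeobox gene of the dorsal neural tube, was at 26.4 ± 1.91, 0.297 ± 0.193 and 0.123 ± 0.0123 CPM in mESC-2i, mESC-ser and EpiLC. Osm encodes oncostatin M, a cytokine of the LIF family, and was at 24.9 ± 1.70, 0.261 ± 0.167 and 0.170 ± 0.207 CPM. Each of these had nearly all of its reads in 2i, as Trpm1 and Sash3 did. Bhmt and Dmgdh, both enzymes of the betaine pathway and close to each other on chromosome 13 (13:93616675-93637961 and 13:93674433-93752833), were at 50.8 ± 3.23 and 108 ± 4.64 CPM in mESC-2i and 1.06 ± 0.0961 and 2.79 ± 0.337 CPM in mESC-ser. Bhmt-ps1 is a pseudogene close to Bhmt in sequence, so its reads are uncertain. Likeness of pattern over 3 groups says nothing of shared function.

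The relatives of the 8 genes, 56 in all, were examined next. In mESC-ser against mESC-2i, 31 of the 56 had enough reads to test, and 15 were called lower and 3 higher (5 higher without replicate 3 of mESC-ser), against 30.3% and 25.9% of all tested genes. Their median log2 fold change was -0.71, beside -0.04 over all tested genes. In EpiLC against mESC-2i, 31 were tested, with 20 lower, 7 higher and a median of -0.97, against 37.8%, 32.0% and -0.11 over all tested genes. In EpiLC against mESC-ser, 28 were tested, with 8 lower and 6 higher. The lists were drawn up with earlier results of these data known.

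Among the genes around Ngfr, Ntrk3, the receptor of neurotrophin-3, had 96.6% of its summed level in 2i. It held 52, 120 and 136 counts in mESC-2i, 2, 3 and 10 in serum and 0 in each EpiLC library, and fell by a log2 fold change of -4.75 ± 0.36 in mESC-ser (edgeR adjusted p = 1.7e-06). Sort1 encodes sortilin, which binds Ngfr as a co-receptor of proneurotrophins. It rose from 17.6 ± 0.99 CPM in mESC-2i to 39.1 ± 2.48 in mESC-ser (log2 fold change 1.13 ± 0.11, edgeR adjusted p = 9.78e-06) and 38.1 ± 1.77 in EpiLC (1.12 ± 0.11, 3.67e-06). Ngfr was highest in 2i, and Sort1 lowest there. The ligand Ntf5, neurotrophin-4, was lower in both, by -1.05 ± 0.19 and -1.45 ± 0.21. Lingo1, a co-receptor of Ngfr in neurons, was lower by -1.97 ± 0.26 in serum and -1.63 ± 0.26 in EpiLC. Of the 13 genes of this list, 4 of 9 tested were lower and 2 higher in mESC-ser, and 6 of 10 lower and 4 higher in EpiLC. Bdnf, 1 of those 4, was at 0.90 ± 0.38 and was not called without replicate 1 or 2 of mESC-2i (0.84 and 0.94) or replicate 1 or 3 of EpiLC (0.50 and 1.04), nor with the replicate block (0.85), DESeq2 (1.00), total counts (0.56) or no filter (0.88). Ntrk2, 1 of the 6, was at -0.68 ± 0.25, was not called without replicate 2 or 3 of mESC-2i or any replicate of EpiLC (-0.54 to -0.70), and turned to 0.33 with length and GC offsets. Among 6 other death domain receptors, 2 of 4 tested were lower in each comparison. Tnfrsf21 fell by -1.36 ± 0.12 and -1.68 ± 0.10, and Tnfrsf1a by -2.58 ± 0.17 in mESC-ser and -0.60 ± 0.14 in EpiLC (-0.49 without replicate 2 of mESC-2i, not called).

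Of the 7 other TRPM channels, 3 had enough reads to test. Trpm7, a widely expressed channel kinase, was at 137 ± 31.1 CPM in mESC-2i, 149 ± 1.25 in mESC-ser (log2 fold change 0.09 ± 0.15, not called, but -0.55 and called with length and GC offsets) and 53.0 ± 7.47 in EpiLC (-1.38 ± 0.16, edgeR adjusted p = 2.06e-05). Trpm4 fell by -0.98 ± 0.17 in serum and -0.91 ± 0.17 in EpiLC, and kept 15.4 ± 1.52 and 15.8 ± 1.62 CPM there. Trpm6 fell by -1.91 ± 0.43 and -2.96 ± 0.71 from a low level of 2.42 ± 1.40 CPM. Trpm2, Trpm3, Trpm5 and Trpm8 held between 0 and 6 counts in every library.

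The chaperones related to Calr4 also differed from it. Calr, calreticulin itself, was at 450 ± 30.6 CPM in mESC-2i, 613 ± 83.7 in serum and 756 ± 27.3 in EpiLC, and was called higher in EpiLC (log2 fold change 0.75 ± 0.10, edgeR adjusted p = 3.23e-05), though not with libraries scaled by total counts (0.41). Its change in mESC-ser, 0.42 ± 0.13, was under the fold threshold and passed it, at 0.55, without replicate 3 of mESC-ser and, at 0.74, with length and GC offsets. Clgn, the calmegin of germ cells, was at 29.6 ± 0.617 CPM in mESC-2i, 41.7 ± 0.711 in serum and 2.99 ± 0.428 in EpiLC, a fall of -3.31 ± 0.15 in EpiLC. No chaperone of this list was called in mESC-ser against mESC-2i, where Calr4 lost nearly all its reads, though Clgn passed at 0.51 without replicate 2 of mESC-ser and at 0.52 with a minimum of 10 counts in every library.

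Fabp3, the heart fatty acid binding protein, had the highest share in 2i, 79.9%, among the 5 tested of the 13 listed relatives of Fabp7. It was at 242 ± 32.6 CPM in mESC-2i, 53.0 ± 4.53 in mESC-ser (log2 fold change -2.22 ± 0.13, edgeR adjusted p = 2.79e-07) and 8.09 ± 1.35 in EpiLC (-4.91 ± 0.16, 2.32e-09). Fabp3 kept more reads in serum than in EpiLC, while Fabp7 had too few to order these groups. Fabp5 fell in mESC-ser (-0.99 ± 0.18) and rose in EpiLC (1.32 ± 0.15), from 41.1 ± 9.54 CPM to 21.1 ± 3.26 in serum and to 95.1, 108 and 104 CPM in the EpiLC libraries. The retinoic acid binding protein gene Crabp1 fell in both, by -2.94 ± 0.18 and -1.25 ± 0.16, and Crabp2 rose in EpiLC by 2.48 ± 0.12. Of the 13, 5 had enough reads to test.

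**Figure D3:**
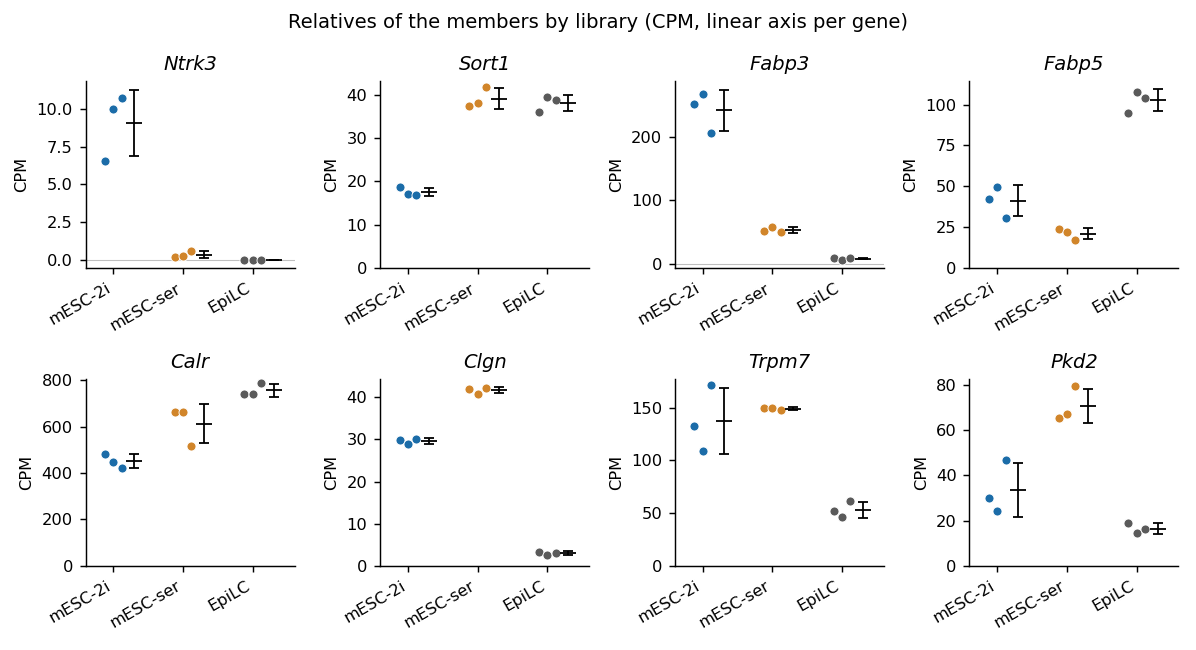
CPM of 8 relatives in each library, with a linear axis per gene. Dots are libraries and bars the mean ± SD of 3, and Ntrk3 and Fabp3 are highest in mESC-2i while Sort1 and Calr are lowest there. Fabp5 is highest in EpiLC and Pkd2 in mESC-ser.

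Pkd2, the channel nearest to Pkd2l1 in kind, went the other way in serum. It was at 33.6 ± 11.8 CPM in mESC-2i, 70.8 ± 7.67 in mESC-ser (log2 fold change 1.04 ± 0.21, edgeR adjusted p = 0.00123) and 16.5 ± 2.31 in EpiLC (-1.04 ± 0.23). Its partner Pkd1 fell in EpiLC by -1.43 ± 0.27. In mESC-ser Pkd1 was not called with all libraries (0.33 ± 0.25) and was called higher, at 0.78, without replicate 3 of mESC-2i. Pkd1l2 fell in both, by -1.41 ± 0.34 and -2.60 ± 0.34, from 2.96 ± 0.64 CPM. Of the 6 listed polycystin relatives, 3 were tested, with 1 lower and 1 higher in mESC-ser and 3 lower in EpiLC. Over all tested genes 30.3% were lower and 25.9% higher in mESC-ser, and 37.8% lower in EpiLC. Sash1, the large relative of Sash3, differed by -0.13 ± 0.14 in mESC-ser, which was not called, and fell by -2.11 ± 0.15 in EpiLC. The homeobox relatives Tlx1 and Tlx3 fell in mESC-ser by -2.71 ± 0.45 and -1.38 ± 0.27 from levels of 1.08 ± 0.199 and 3.21 ± 0.706 CPM. Tlx3 also fell in EpiLC, by -2.39 ± 0.32, and Tlx1 was not tested there. The relatives listed for Lrrc15 (Gp5, Cpn2 and Lrg1) held at most 9 counts in any library and were not tested.

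Since Trpm1 is known from melanocytes, 12 MITF/TFE factors and melanocyte genes were examined. In mESC-ser against mESC-2i, 5 of 6 tested were lower and none higher (1 higher, Tfe3 at 0.50, without replicate 2 of mESC-ser), and in EpiLC 4 of 6 were lower and 1 higher. Over all tested genes the shares were 30.3% lower and 25.9% higher in mESC-ser, and 37.8% and 32.0% in EpiLC. Mitf, the master regulator of melanocytes, was at 46.1 ± 7.75 CPM in mESC-2i, 9.30 ± 0.709 in mESC-ser (log2 fold change -2.33 ± 0.15, edgeR adjusted p = 5.25e-07) and 0.800 ± 0.376 in EpiLC (-5.81 ± 0.26, 1.72e-08). Tfeb, a lysosomal regulator of the same family, fell by -1.83 ± 0.12 and -2.68 ± 0.13. Tfe3 was called higher in EpiLC (0.69 ± 0.10, edgeR adjusted p = 7.56e-05), and not with libraries scaled by total counts (0.35). The melanosome gene Pmel fell by -2.27 ± 0.16 and -3.52 ± 0.20, and Gpnmb by -4.79 ± 0.32 and -5.23 ± 0.20. Mlana fell in mESC-ser (-2.92 ± 0.32) and differed by -0.08 ± 0.18 in EpiLC. The pigment enzymes that define melanocytes were near 0 in all groups, with 0 or 1 count of Tyr and Tyrp1 and 0 to 2 counts of Dct per library. The summed level of the 12 genes was 271 to 285 CPM in mESC-2i, 179 to 211 in serum and 194 to 219 in EpiLC. Tfe3 alone made a mean of 117, 160 and 188 CPM of it, so the sum hides the falls of the other called genes.

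**Figure D4:**
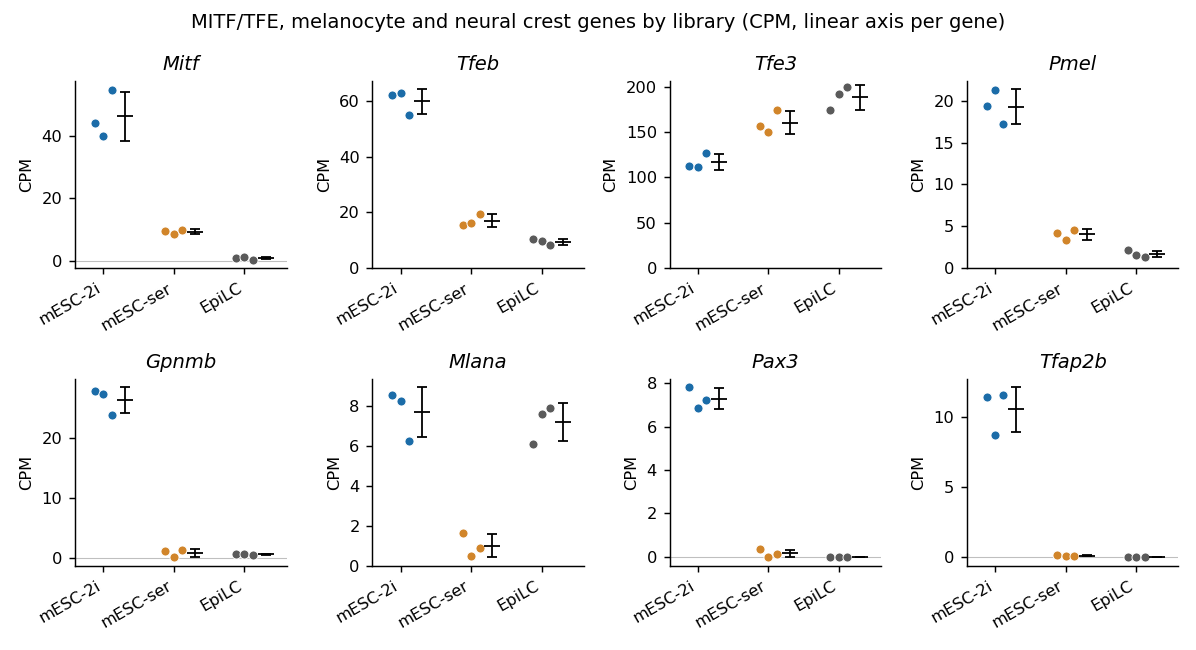
CPM of 6 MITF/TFE and melanocyte genes and 2 neural crest genes in each library, with a linear axis per gene. Dots are libraries and bars the mean ± SD of 3, and all but Tfe3 and Mlana are highest in mESC-2i without overlap. Mlana is similar in mESC-2i and EpiLC.

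Markers of the other cell types in which the 8 genes are known were read beside them. Their counts stand against the same shares over all tested genes, 30.3% lower and 25.9% higher in mESC-ser and 37.8% and 32.0% in EpiLC. Of 16 neural crest and Schwann cell genes, 4 of 11 tested were lower and 4 higher in mESC-ser, and 5 of 10 lower and 2 higher in EpiLC. Pax3 fell from 7.30 ± 0.496 CPM to 0.153 ± 0.175 in mESC-ser (log2 fold change -5.46 ± 0.40) with no read in EpiLC, and Ednrb from 3.22 ± 0.662 to 0.188 ± 0.170, also with none in EpiLC. Tfap2a fell in both (-1.76 ± 0.17 and -3.95 ± 0.25). Foxd3 rose in both (1.56 ± 0.11 and 1.23 ± 0.14), as did Phox2a (1.24 ± 0.30 and 1.89 ± 0.23). Ets1 and Ret rose in mESC-ser, by 2.64 ± 0.21 and 0.99 ± 0.26. The defining Sox10 held 1 to 7 counts in every library and S100b 0 or 1. The summed list was at 93.6 to 111 CPM in mESC-2i, 122 to 147 in serum and 78.5 to 96.9 in EpiLC. As a sum it was thus not highest in 2i. Most of it was Foxd3, at 21.7, 65.3 and 51.0 CPM in mESC-2i, serum and EpiLC, and Erbb3, at 36.0, 41.4 and 24.0. No pattern of the other listed genes is read from this sum. Of 9 radial glia genes, beside Fabp7, 4 of 8 tested were lower and 4 higher in mESC-ser, and 5 of 7 lower and 1 higher in EpiLC. Sox1 fell by -1.87 ± 0.17 and -4.31 ± 0.18 and Hes5 by -6.40 ± 0.50 and -5.20 ± 0.40, whereas Pax6 rose in mESC-ser by 3.83 ± 0.18 and Slc1a3 rose in both by 2.74 ± 0.16 and 2.89 ± 0.14. That sum was 434 to 530 CPM in mESC-2i, 288 to 311 in serum and 148 to 156 in EpiLC, most of it Vim.

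Beside the same shares over all tested genes, of 10 lymphoid genes, in which Sash3 is not counted, 3 of 5 tested were lower and 1 higher in mESC-ser, and 3 of 6 lower and 3 higher in EpiLC. Laptm5, a lysosomal protein of blood cells, was at 241 ± 15.8 CPM in mESC-2i and fell by -1.80 ± 0.10 and -4.33 ± 0.11. Cd3e, of the CD3 part of the T cell receptor complex, fell by -2.24 ± 0.20 and -3.09 ± 0.32. The kinase gene Lck rose in both, by 1.09 ± 0.14 and 1.54 ± 0.14, and Coro1a and Cd79a rose in EpiLC by 2.10 ± 0.20 and 3.76 ± 0.38. The defining leukocyte gene Ptprc held 0 or 1 count in every library. The sum was 254 to 286 CPM in mESC-2i, 95.6 to 99.3 in serum and 53.9 to 57.0 in EpiLC. Laptm5 alone made a mean of 241, 70.2 and 11.9 CPM of it, so the sum mainly follows that gene. Of 8 fibroblast genes, beside Lrrc15, 2 of 5 tested were lower and 1 higher in mESC-ser, and 4 of 6 lower and 2 higher in EpiLC. Col3a1 fell by -2.54 ± 0.17 and -5.82 ± 0.48, Col1a1 rose in mESC-ser by 1.09 ± 0.16 and fell in EpiLC by -3.88 ± 0.30, Thy1 and Dcn rose in EpiLC by 3.25 ± 0.15 and 4.08 ± 0.29, and Lum held 0 to 3 counts per library. That sum was 53.2 to 58.8 CPM in mESC-2i, 62.5 to 83.4 in serum and 42.3 to 46.7 in EpiLC. The part of other cells in the levels of the 8 genes was not tested.

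The genes next to the 8 on the chromosome were also read. The nearest protein-coding gene on each side within 200 kb gave 15 neighbours, of which 11 were tested in each comparison with mESC-2i. In mESC-ser 7 were lower and none higher, with a median log2 fold change of -0.86, and in EpiLC 6 were lower and 2 higher, with a median of -0.96. Over all tested genes 30.3% were lower and 25.9% higher in serum (median -0.04), and 37.8% and 32.0% in EpiLC (median -0.11). Xpnpep2, an aminopeptidase gene 9455 bases from Sash3, was lower in both comparisons, with 53, 70 and 65 counts in mESC-2i, 15, 8 and 17 in serum and 0, 2 and 1 in EpiLC (log2 fold changes -2.70 ± 0.24 and -5.44 ± 0.43). Zdhhc9, on the other side of Sash3 at 10404 bases, was not called in either, at 0.36 ± 0.14 and -0.06 ± 0.13, but turned to 0.54 in EpiLC and was called there with length and GC offsets. Beside Tlx2, Dqx1 (1006 bases away) and the Polycomb gene Pcgf1 (7576 bases away) fell in mESC-ser by -1.48 ± 0.40 and -2.20 ± 0.22. Replicate 3 of mESC-2i was the highest for both. Replicates 1 to 3 were at 4.54, 2.75 and 8.87 CPM for Dqx1 and 24.5, 20.4 and 35.2 CPM for Pcgf1. In EpiLC, where Tlx2 had no read, Dqx1 and Pcgf1 differed from mESC-2i by -0.20 ± 0.38 and -0.32 ± 0.18 and were not called. Pcgf1 was called there with libraries scaled by total counts (-0.65). Bloc1s2, 1191 bases from Pkd2l1, fell in mESC-ser (-1.03 ± 0.22) and was called higher in EpiLC (0.59 ± 0.16), but not without replicate 3 of mESC-2i (0.41) or with libraries scaled by total counts (0.26). Mtmr10, 17878 bases from Trpm1, differed by 0.06 ± 0.15 in mESC-ser, which was not called, and fell by -1.24 ± 0.16 in EpiLC. Beside Ngfr, Nxph3 fell in both (-0.86 ± 0.20 and -1.98 ± 0.23), while Phb rose in EpiLC (1.12 ± 0.15). The neighbours of Fabp7 and Lrrc15 (Pkib, Smpdl3a, Cpn2 and Gp5) held at most 9 counts in any library and were not tested.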

How the data were processed

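RNA-seq of E14 cells in 3 culture states, 3 libraries each, was analysed. Per the labels and the study's methods, poly-A RNA was made into TruSeq libraries and sequenced as single-end reads, and the authors trimmed reads with Trim Galore 0.6.6, aligned them to mm10 with HISAT2 2.2.1 and counted them per gene with featureCounts of Subread 2.0.1. The deposited values are raw counts, whole numbers with no normalization. The annotation release, strand setting and treatment of multiply aligned reads are not given in the sources used here, so genes that overlap others or have near-identical copies are uncertain. Serum columns were matched to samples by the letters S and L, the initials of the 2 words in the serum titles. Positions, lengths and GC content came from GENCODE M21 (GRCm38, the assembly of mm10), which matched 36429 of 38293 gene identifiers (95.1%).

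The 8 genes and all gene lists were chosen with earlier results of these data known. The groups were compared in pairs, with only the 6 libraries of a pair in the fit, by edgeR 4.0.16 (R 4.3.3, limma 3.58.1) after filterByExpr and TMM scaling, with the quasi-likelihood F-test and Benjamini-Hochberg adjustment over all tested genes. Calls needed both an adjusted p below 0.05 and a log2 fold change beyond 0.5 in either direction. SE came from the F statistic. DESeq2 1.42.0 served as an alternative test. CPM were scaled by TMM over 9 libraries. Pooled ratios were scaled by library size times the TMM factor, with 95% Clopper-Pearson intervals, and a group at 0 was set to 3 counts over its libraries. Reads carried no molecular identifiers, so intervals and floors cover counting error only. Named genes were the 8, listed genes called in any comparison that averaged 10 or more counts in their higher group, the nearest protein-coding gene on each side within 200 kb, and the 10 other genes with the highest share in mESC-2i that are not clone names. Some defining markers near 0 and other uncalled genes are given beside them and were added after their values were seen. Promoter windows came from RefSeq (GRCm38.p6), which matched 6 of the 8 genes. Some listed genes are not reported here by name.

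Whether replicate numbers pair libraries was checked by correlating deviations from group means. In mESC-ser against mESC-2i, same-numbered libraries gave 0.141, 0.195 and 0.359, all over the limit taken for pairing. Differently numbered libraries gave -0.293 to 0.157 there, so the ranges overlap. What a number marks is not in the labels. Same-numbered libraries gave 0.0153 to 0.132 in EpiLC against mESC-2i and 0.0124 to 0.036 in EpiLC against mESC-ser, and were not taken as pairs. Where replicates do not come from separate cultures, p-values measure only the spread between these libraries.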

Additional observations from a re-analysis of the deposited data

How the results depend on the processing

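The 8 genes were called lower in both comparisons with mESC-2i under every alternative in which they could be tested, and none changed direction. Since the same libraries chose the genes, this is a description and nothing is read from it. A minimum of 10 counts in every library left 2 of the 8 to test in each comparison. The largest shift for Ngfr in mESC-ser came with length and GC offsets (-0.98). The comparison of serum with 2i called 8843 genes, that of EpiLC with 2i 10732 and that of EpiLC with serum 11246, and with the replicate block these were 8953, 10759 and 11207. The replicate block changed no call of the 8 genes. With the fold threshold raised to 1 on the log2 scale, 4935 genes were called in serum. Scaling by total counts moved the median difference over all tested genes (log2) from -0.11 to -0.45 for EpiLC and 2i, from -0.07 to -0.41 for EpiLC and serum, and from -0.04 to -0.09 for serum and 2i. The share of higher genes among calls then went from 45.9% to 33.7%, from 48.4% to 37.4% and from 46.1% to 43.5%. Length and GC offsets gave 55.8%, 56.0% and 50.5%, with medians of 0.18, 0.15 and 0.02, and turned the direction of Ntrk2 in EpiLC against mESC-2i (0.33) and against mESC-ser (0.58), of Bex3 against mESC-ser (-0.35) and of Osbpl9 against mESC-ser (0.16), and, among genes that were not called, of Trpm7 in serum (-0.55) and Zdhhc9 in EpiLC (0.54). The cause was not tested.

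In mESC-ser against mESC-2i, relatives called higher went from 3 to 5 with those offsets and to between 3 and 5 with a replicate left out. Neighbours called lower went from 7 to 4 at a log2 fold change over 1, and neighbours called higher from 0 to 1 with no filter. MITF/TFE and melanocyte genes called lower went from 5 to 3 with at least 10 counts in every library, which left fewer genes, and those called higher from 0 to 2 with no filter and to between 0 and 1 with a replicate left out (1 without replicate 2 of mESC-ser, where Tfe3 reached 0.50). In EpiLC against mESC-2i, relatives called higher went from 7 to 4 at a log2 fold change over 1. Neighbours called higher went from 2 to 1 at that threshold, with total counts, and without replicate 3 of mESC-2i (1 to 2 over replicates left out). MITF/TFE and melanocyte genes called lower went from 4 to 2 with at least 10 counts, and those called higher from 1 to 0 with total counts, to 0 at a log2 fold change over 1 and to 2 with no filter. Relatives called lower in EpiLC against mESC-ser went from 8 to 14 with total counts. The loss of calls at the higher fold and minimum count follows from how they are built; the cause of the others was not tested. Trpm4 (-0.32) and Pkd2 (-0.24) in EpiLC were not called with length and GC offsets. With few counts in the low groups, depth limits the order of mESC-ser and EpiLC for Trpm1, Sash3 and Fabp7.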
